A study of Rattus with 6 samples.

Results

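The proteins of small nucleolar ribonucleoprotein particles (snoRNPs) were followed as a set of 10 genes, chosen by name for their known roles and read from the rows of the deposited count table that carry those symbols. All 10 were listed among its 20742 genes, and all 10 passed the filter on low counts that left 12882 genes for testing. They comprise 3 core proteins of box C/D snoRNPs (Nop58, Nop56 and Fbl), 4 core proteins of H/ACA snoRNPs (Dkc1, Nhp2, Nop10 and Gar1) and 3 nucleolar proteins that chaperone snoRNPs or ribosome precursors (Nolc1, Ncl and Npm1). RNA came from H9C2 cells, a line derived from embryonic rat heart, carrying either a plasmid for RBM25 overexpression (3 libraries) or a control plasmid (3 libraries). The RBM25 protein binds RNA and, with the U1 snRNP, takes part in splice site choice. The labels give no other treatment, time or passage, and name no separate cultures, so the spread between libraries may be technical.

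Box C/D and H/ACA snoRNPs are the nucleolar enzymes that modify ribosomal RNA. A small nucleolar RNA (snoRNA) pairs with the target, and the protein core carries out the reaction. In box C/D particles fibrillarin (Fbl) methylates the ribose, with Nop56 and Nop58 as the scaffold that holds it on the guide RNA. In H/ACA particles dyskerin (Dkc1) converts uridine to pseudouridine, and Nhp2, Nop10 and Gar1 complete the core, which telomerase RNA also carries. Nolc1 (Nopp140) accompanies both kinds of particle through Cajal bodies and the nucleolus, while nucleolin (Ncl) and nucleophosmin (Npm1) are abundant nucleolar proteins that act in ribosomal RNA processing and ribosome assembly.

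Libraries held 25543849 to 33130256 counted reads. Rbm25 stood at 56.3, 55.9 and 60.1 CPM (read counts scaled by library size) in RBM25 libraries 1, 2 and 3, against 49.2, 44.5 and 45.7 CPM in control libraries 1, 2 and 3, so the groups did not overlap. RBM25 library 3 stood apart. In chi-square tests of counts between libraries, the statistic divided by its degrees of freedom was 6.23 and 4.80 for this library against RBM25 libraries 1 and 2, compared with 3.22 between those 2 and 3.37 to 3.47 among controls. Of the muscle markers, Acta2, Tpm2, Casq2, Tnnt2, Myod1, Myog and Des were read in both groups, Actn2 and Myh7 had 18 and 4 reads in all, and Myf5 was not listed. The summed level of the muscle markers was 8591 to 9368 CPM with the RBM25 plasmid and 8451 to 8976 CPM with the control plasmid. Most of it was Acta2, with means of 7487 and 7248 CPM in the RBM25 and control groups, while Des had 9.80 and 9.25 CPM. The summed level of fibroblast markers such as Col1a1 and Vim was 27509 to 28747 and 27274 to 29493 CPM in the RBM25 and control groups. Of the fibroblast markers, Pdgfra had 5 reads in all and Dcn was not listed. Leukocyte markers summed to 5.72 to 7.01 CPM with the RBM25 plasmid and 6.05 to 6.66 CPM with the control plasmid, and Ptprc and Itgam were not listed. Epithelial markers summed to 756 to 903 and 780 to 838 CPM in the RBM25 and control groups; these were nearly all Krt7, and Epcam had 1 read in all. The summed level of 5 endothelial markers was 0.637 to 0.884 CPM with the RBM25 plasmid and 0.627 to 0.864 CPM with the control plasmid. In bulk RNA, a change in the number of cells of a kind and a change in RNA per cell cannot be told apart.

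The 10 genes are all well expressed in this line. Levels are compared between genes in the deposited FPKM (fragments scaled by gene length and library size), since longer genes collect more reads. The means over the 6 libraries lay at percentiles 86.4 (Gar1) to 98.7 (Npm1) of the 20395 genes listed with an FPKM. Npm1 was highest, at 317, 310 and 317 FPKM in RBM25 libraries 1, 2 and 3, against 301, 289 and 296 FPKM in the control libraries. Ncl came next, at 207 ± 2.24 FPKM with the RBM25 plasmid and 198 ± 8.65 FPKM with the control plasmid (SD, n = 3 each). The third was Nop10, the smallest of the H/ACA core proteins, at 136 ± 7.03 and 138 ± 3.09 FPKM in the RBM25 and control groups. Below these the order was Fbl, Nhp2, Nolc1, Nop58, Nop56, Dkc1 and Gar1.

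**Figure D1:**
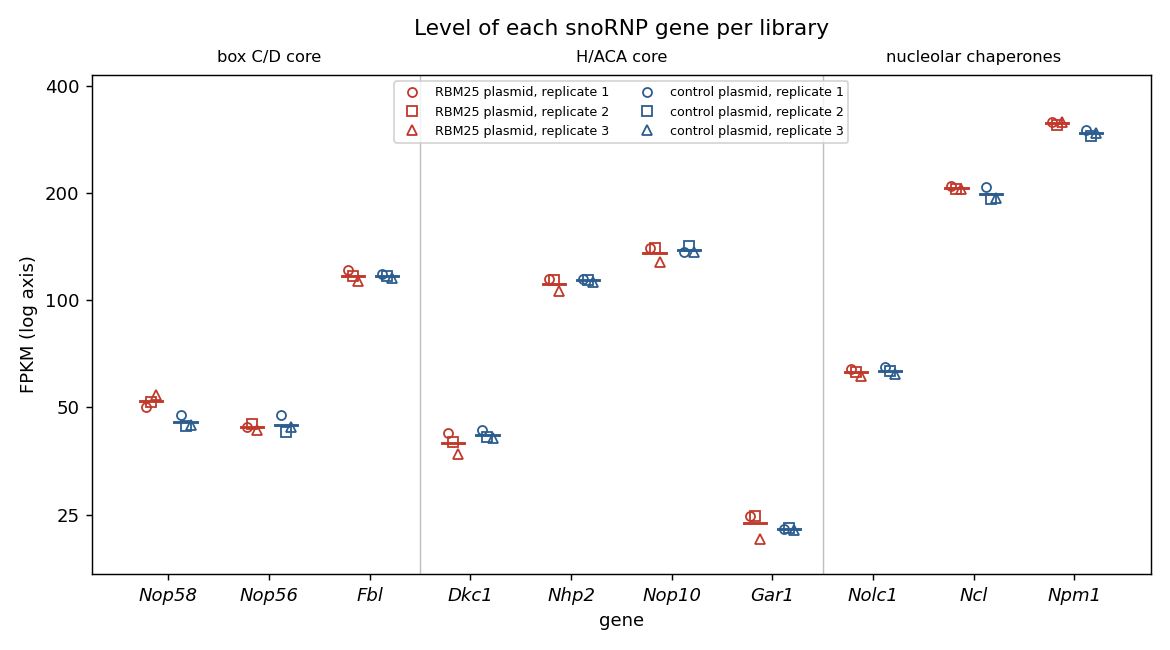
Deposited FPKM (log axis) of the 10 genes in each library, with RBM25 libraries in red left of control libraries in blue, symbols for the replicate and a bar for the group mean. Npm1 (mean 305 FPKM over 6 libraries) is 13.1 times as high as Gar1 (23.2 FPKM), and this range over genes is far larger than any gap between the groups.

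Of the 9 steps in that order, 6 separated genes whose 6 values did not overlap. The other 3 did overlap: Fbl over Nhp2, Nop58 over Nop56, and Nop56 over Dkc1. Within a library Fbl was above Nhp2 in 6 of 6 and Nop56 above Dkc1 in 6 of 6, and Nop58 was above Nop56 in 5 of 6. Genes of 1 particle were thus unequal in FPKM. In the H/ACA core, mean FPKM over the 6 libraries was 3.37 times that of Dkc1 for Nop10 and 2.76 times for Nhp2, while Gar1 was the lowest. In the box C/D core Fbl had a mean of 117 FPKM, against 48.8 for Nop58 and 44.4 for Nop56. These ratios between genes depend on the gene lengths that the authors used, whose definition the sources used here do not give.

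Among the core scaffold proteins of box C/D snoRNPs, Nop58 rose with RBM25 overexpression. It had 4148, 4112 and 3742 reads in RBM25 libraries 1, 2 and 3, against 3026, 3193 and 3452 reads in control libraries 1, 2 and 3. Scaled for library size this was 126, 130 and 134 CPM with the RBM25 plasmid, against 119, 111 and 112 CPM with the control plasmid. Every RBM25 library lay above every control library, and the closest pair was RBM25 library 1 and control library 1. Group means were 130 ± 4.06 and 114 ± 4.26 CPM in the RBM25 and control groups (SD, n = 3 each), a rise of 14.0% (95% interval 8.40% to 20.0%). On the log2 scale the change was 0.19 ± 0.036 (SE; edgeR quasi-likelihood test, Benjamini-Hochberg adjusted p = 0.00922).

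Nop58 was the 1 member called among 10, where 0.404% of all 12882 tested genes were called in either direction (52 genes). Calls of higher genes made up 0.357% and calls of lower genes 0.0466%. By p it had rank 20 over all genes. Leaving out single libraries ended the call in 3 of 6 fits: the edgeR adjusted p was 0.181 without control replicate 2 (log2 fold change 0.17), 0.0997 without control replicate 3 (0.18) and 0.0682 without RBM25 replicate 2 (0.19). On FPKM values limma-trend gave 0.19 with an adjusted p of 0.313 to 0.597. Without RBM25 replicate 3 the call was kept (log2 fold change 0.17, edgeR adjusted p = 0.00202).

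The scaffold partner Nop56 and the methyltransferase Fbl did not pass. Nop56 stood at 102, 104 and 98.5 CPM in RBM25 libraries 1, 2 and 3, against 110, 97.8 and 101 CPM in control libraries 1, 2 and 3, with control library 1 the highest of all 6. The Nop56 fold change was -0.019 ± 0.039 (log2, SE; edgeR adjusted p = 0.902), with an interval of -6.71% to 4.36%. Fbl had 156, 150 and 144 CPM with the RBM25 plasmid, against 152, 150 and 147 CPM with the control plasmid, so the RBM25 libraries lay on both sides of the controls. The Fbl fold change was 0.0049 ± 0.034 (log2, SE; edgeR adjusted p = 0.975; interval -4.40% to 5.31%). The sign of either gene turned when 1 library was left out: the log2 fold change was 0.030 for Nop56 without control replicate 1, and -0.022 for Fbl without RBM25 replicate 1. In the RefSeq gene table of the assembly GRCr8, Nop56 shares part of its span with Idh3b, a gene of the citrate cycle. Since it is not stated whether counting used the strand, some Nop56 reads could belong to Idh3b, whose own log2 fold change was -0.023 (adjusted p of 0.88 by edgeR).

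**Figure D2:**
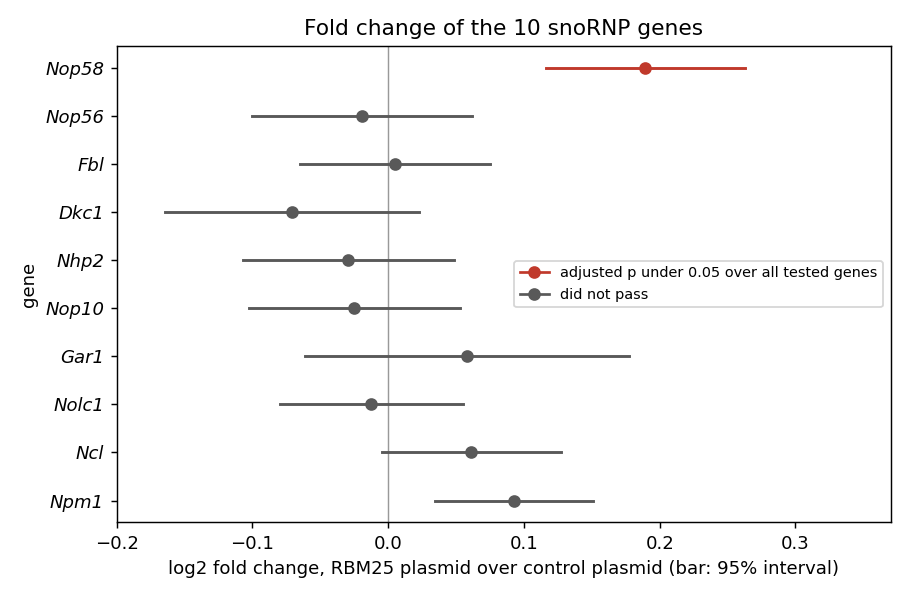
Log2 fold change of each gene, RBM25 plasmid over control plasmid, with its 95% interval from the edgeR fit; red marks an adjusted p under 0.05 over all tested genes. Nop58, at 0.19, is the 1 gene in red, and the intervals of 8 of the 10 genes include 0.

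Ratios of reads within a library do not depend on how libraries are scaled. The reads of Nop58 over those of Nop56 came to 1.24, 1.25 and 1.36 in RBM25 libraries 1, 2 and 3, against 1.08, 1.14 and 1.11 in control libraries 1, 2 and 3. The groups did not overlap, and the difference was 0.21 on the log2 scale. Nop58 over Fbl gave 0.806, 0.864 and 0.929 with the RBM25 plasmid, against 0.781, 0.742 and 0.758 with the control plasmid, again without overlap (difference 0.19). The ratio of the other two, Nop56 over Fbl, was 0.675 ± 0.0206 and 0.686 ± 0.0337 in the RBM25 and control groups (SD, n = 3 each), which overlapped. For both Nop58 ratios the exact permutation test over the 6 libraries, taken on both sides, gave p = 0.1, the smallest it allows, and an adjusted p of 0.2 over the 12 within-class pairs.

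The H/ACA core genes did not pass the test, and 3 of the 4 had a negative fold change. Dkc1, which encodes the pseudouridine synthase, had 82.9, 78.1 and 71.5 CPM in RBM25 libraries 1, 2 and 3, against 84.4, 80.5 and 79.8 CPM in control libraries 1, 2 and 3. RBM25 libraries 2 and 3 lay below every control library, and RBM25 library 1 lay within the control range. The Dkc1 fold change was -0.071 ± 0.045 (log2, SE; edgeR adjusted p = 0.592), with an interval of -10.8% to 1.59%. The files' annotation puts Dkc1 on an unlocalised scaffold of the Y chromosome, while the RefSeq table of GRCr8 puts it on the X chromosome.

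Nhp2, an RNA-binding relative of the box C/D protein Snu13, stood at 94.4 ± 4.57 and 96.4 ± 1.35 CPM in the RBM25 and control groups (SD, n = 3 each). The Nhp2 fold change was -0.029 ± 0.038 (log2, SE; edgeR adjusted p = 0.823). Nop10, a small protein that sits on dyskerin, stood at 126 ± 7.39 and 129 ± 3.06 CPM in the RBM25 and control groups, with a fold change of -0.025 ± 0.038 (log2, SE; edgeR adjusted p = 0.858). A row described as a pseudogene of this protein had 44 reads in the RBM25 libraries together and 32 in the controls. Reads of such copies cannot be separated with certainty.

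Gar1, which joins the particle late in its maturation and carries arginine- and glycine-rich stretches, was the least abundant member and the least precise. It had 1206, 1152 and 869 reads in RBM25 libraries 1, 2 and 3, against 847, 967 and 1026 reads in control libraries 1, 2 and 3. In CPM these were 36.6, 36.4 and 31.1 with the RBM25 plasmid, against 33.2, 33.7 and 33.2 with the control plasmid. The first 2 RBM25 libraries lay above all controls and the third lay below all of them. The Gar1 fold change was 0.058 ± 0.058 (log2, SE; edgeR adjusted p = 0.764), with an interval of -4.14% to 13.1%. Without RBM25 replicate 3 it was 0.13 (edgeR adjusted p = 0.231).

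RBM25 library 3 set much of the spread in this class. Its CPM was the lowest of the 6 libraries for 6 of the 10 members, namely Fbl, Dkc1, Nhp2, Nop10, Gar1 and Nolc1, while it was the lowest library for 20.0% of all tested genes. For Nop58 it was the highest. Averaged over the 4 H/ACA genes, log2 CPM minus its control mean came to 0.049, 0.021 and -0.13 in RBM25 libraries 1, 2 and 3, and to 0.010, 0.010 and -0.021 in control libraries 1, 2 and 3. Without that library the log2 fold changes of Nhp2, Nop10 and Nolc1 turned positive (0.0095, 0.022 and 0.0094; edgeR adjusted p = 0.946, 0.834 and 0.937), and that of Dkc1 was -0.017. The summed level of 12 proliferation genes was also lowest there, at 1754, 1664 and 1451 CPM in RBM25 libraries 1, 2 and 3, against 1707, 1586 and 1560 CPM in the control libraries. The part of proliferation in these values was not tested.

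**Figure D3:**
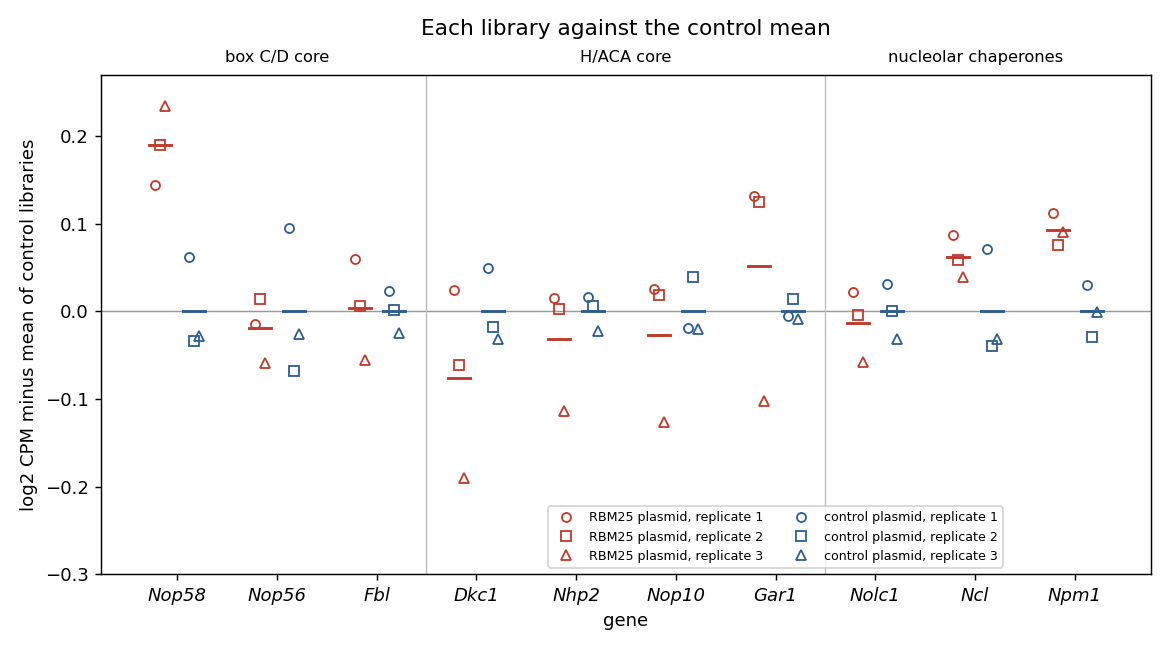
Log2 CPM of each gene in each library minus its mean over the control libraries, RBM25 in red left of control in blue, with symbols for the replicate and bars for group means. The red triangles, RBM25 library 3, are lowest for the 4 H/ACA genes (-0.19 for Dkc1) and highest for Nop58 (0.23).

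The most abundant members, Npm1 and Ncl, had positive fold changes that did not pass. Npm1 had 828, 808 and 816 CPM in RBM25 libraries 1, 2 and 3, against 782, 751 and 766 CPM in control libraries 1, 2 and 3. All RBM25 values lay above all control values, and its interval, 2.43% to 11.0%, left out 0. The log2 fold change was 0.093 ± 0.028 (SE), with an unadjusted p of 0.00299 and an edgeR adjusted p of 0.157. Without RBM25 replicate 3 the edgeR adjusted p was 0.0499 at a log2 fold change of 0.094, so Npm1 was then called. That fit called 2.69% of 13098 tested genes, against 0.404% with all libraries. Npm1 and Nop58 were the 2 of 10 members whose groups did not overlap, both higher; of all tested genes 8.31% were higher and 7.94% lower without overlap.

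Ncl had 546, 535 and 528 CPM in RBM25 libraries 1, 2 and 3, against 540, 500 and 503 CPM in control libraries 1, 2 and 3, and control library 1 lay among the RBM25 values. The Ncl fold change was 0.061 ± 0.032 (log2, SE; edgeR adjusted p = 0.487). Nolc1 stood at 253 ± 7.10 and 255 ± 5.59 CPM in the RBM25 and control groups (SD, n = 3 each), with a fold change of -0.012 ± 0.033 (log2, SE; edgeR adjusted p = 0.927). The ratio of Nolc1 to Npm1 reads was 0.313, 0.315 and 0.300 in RBM25 libraries, against 0.333, 0.340 and 0.326 in control libraries, without overlap.

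Across the 12 pairs of genes within a class, the read ratio did not overlap between groups in 6. Over all pairs of the 5242 tested genes whose log2 CPM averaged 5 or more, the share was 18.7%; the 12 pairs share genes, so they are not independent of each other. The ratio was higher with RBM25 overexpression for Nop58 over Nop56 and Nop58 over Fbl, and lower for Dkc1 over Gar1, Nop10 over Gar1, Nolc1 over Ncl and Nolc1 over Npm1. Each of the 6 had an exact permutation p of 0.1, the smallest possible, and an adjusted p of 0.2, so none passed. Dkc1 over Gar1 was 2.27, 2.15 and 2.30 in RBM25 libraries, against 2.54, 2.39 and 2.40 in control libraries, a log2 difference of -0.13. The difference in this ratio went the same way in RBM25 library 3 as in RBM25 libraries 1 and 2, although both genes were low there.

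**Figure D4:**
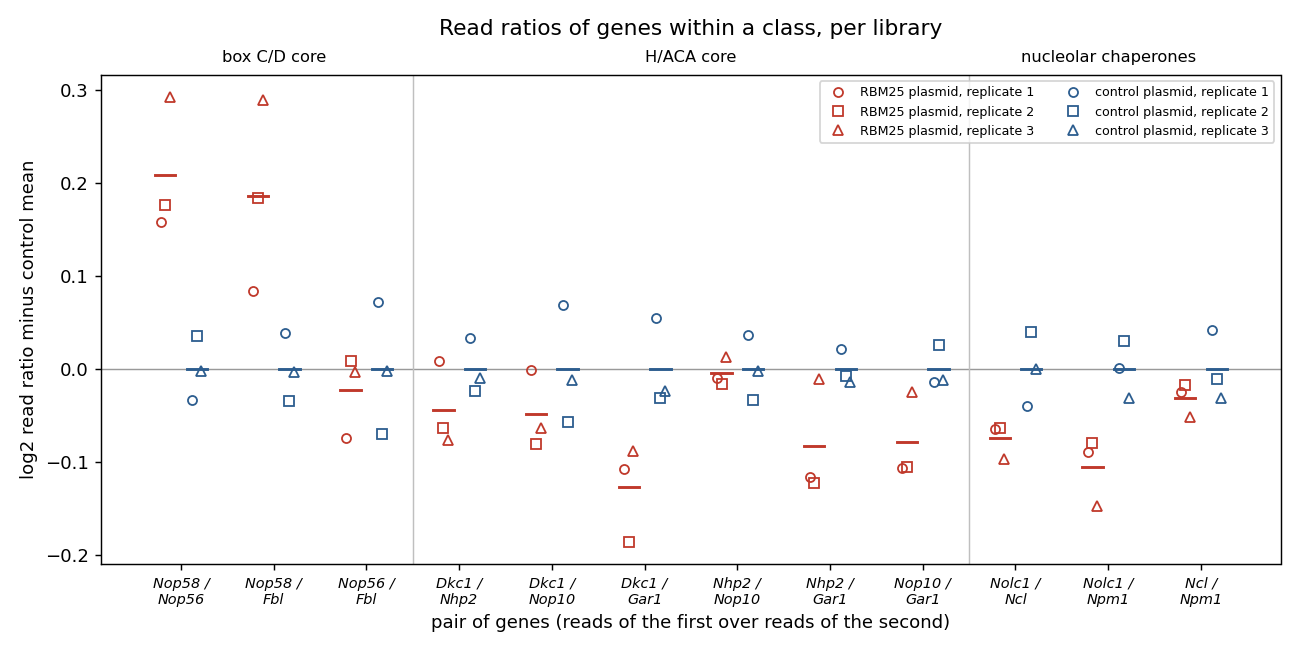
Log2 ratio of reads for the 12 pairs of genes within a class, minus the mean of the control libraries, RBM25 in red left of control in blue. The largest differences are the 2 ratios with Nop58 on top (0.21 and 0.19), and Dkc1 over Gar1 is the lowest (-0.13).

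Taken as a list, the 10 genes had 5 positive and 5 negative fold changes with a median log2 value of -0.0038, against 48.8% positive and a median of -0.0021 over all tested genes. Single libraries moved this balance: 8 were positive without RBM25 replicate 3 (median 0.028), 7 without control replicate 1 (0.024) and 4 without RBM25 replicate 1 (-0.020). The 9 members that were not called had log2 fold changes from -0.071 to 0.093, and their 95% intervals reached from -10.8% to 13.1%. Together the 10 genes took 0.235%, 0.232% and 0.230% of all reads in RBM25 libraries 1, 2 and 3, against 0.230%, 0.220% and 0.221% in control libraries 1, 2 and 3. Most of these reads came from Npm1 and Ncl. Counting error ran from 0.653% of the mean for Npm1 to 3.14% for Gar1. For Nop58 it was 1.66%, against a coefficient of variation of 3.13% among RBM25 and 3.74% among control libraries. For Gar1 and Nhp2 the variation among controls (0.825% and 1.40%) was below their counting error, which was 1.88% for Nhp2.

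Members with like profiles over the 6 libraries were found by the root mean square difference of their centred log2 CPM. The closest pairs were Fbl with Nolc1 (0.014) and Nhp2 with Nop10 (0.022), and the farthest was Nop58 with Dkc1 (0.16). Among 5225 other genes whose log2 CPM averaged at least 5, those closest to the members' mean profile were Ncam1 (0.0048), RGD1560212 (0.0073), St6galnac4 (0.0075), Fkbp1a (0.0082) and Hnrnpu (0.0093). The log2 fold changes of these 5 were between 0.017 and 0.030, and none was called. Since they were chosen for likeness to that profile, these small values follow from the choice and are not a separate result.

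Genes that act around the particles did not pass either. Over all tested genes, 11.2% had an unadjusted p under 0.05, and the lists' counts at that threshold are to be read beside it. Of 15 genes for snoRNP assembly and maturation, edgeR called 0, and 0 had an unadjusted p under 0.05; 8 were positive and the median log2 fold change was 0.0049. The list includes Snu13, the remaining core protein of box C/D particles, at 52.7 ± 5.04 and 54.8 ± 2.35 CPM in the RBM25 and control groups (SD, n = 3 each; log2 fold change -0.053, edgeR adjusted p = 0.782). Its smallest p belonged to Znhit3, an assembly factor for box C/D particles (log2 fold change 0.18 ± 0.12 SE, edgeR adjusted p = 0.614). Of 65 genes of ribosomal RNA processing and ribosome assembly, edgeR called 0 and 3 had an unadjusted p under 0.05, with 40 positive and a median of 0.011. The smallest p there was that of Gnl3, nucleostemin (log2 fold change 0.13 ± 0.046 SE, edgeR adjusted p = 0.229). Its levels of 54.3, 52.4 and 55.4 CPM in RBM25 libraries, against 50.2, 46.4 and 51.0 CPM in control libraries, did not overlap.

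Of 16 genes of the RNA polymerase I machinery, which makes the ribosomal RNA precursor, edgeR called 0 and 1 had an unadjusted p under 0.05 (Taf1d, log2 fold change 0.13, edgeR adjusted p = 0.333; list median 0.024). Of 11 genes of the MYC network, named for Myc, a transcription factor known for driving ribosome biogenesis, edgeR called 0 and 2 had an unadjusted p under 0.05. The list also holds antagonists of Myc such as Mxd4, so the signs of its genes do not share 1 meaning. For Myc itself the log2 fold change was -0.037 (adjusted p of 0.868 by edgeR), and 9 of the 11 were negative (median -0.061; smallest p Mxd4, -0.17, edgeR adjusted p = 0.284). Of 12 proliferation genes, edgeR called 0 with 0 at an unadjusted p under 0.05 (median -5.9e-04; smallest p Aurkb, -0.056, edgeR adjusted p = 0.739). Single libraries moved the balance of the proliferation list: all 12 were positive without RBM25 replicate 3 (median 0.084, 4 at an unadjusted p under 0.05, Ccna2 called), 11 without control replicate 1 (0.037) and 0 without RBM25 replicate 1 (-0.049). DESeq2 also called 0 genes in each of these 5 lists, and with no filter on low counts edgeR called Mxd4.

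Several members are known as hosts of snoRNAs, which are cut from their introns. In the RefSeq table of GRCr8, 5 snoRNA genes lie inside Nop58, 5 inside Nop56 and 3 inside Ncl, and none inside the other 7. Of these, 3 in Nop58 and 2 in Ncl have rows in the count table, with 4 reads in the RBM25 libraries and 8 in the controls for Nop58, and 8 and 2 reads for Ncl. At these numbers no difference between groups could be measured. Of 23 listed snoRNA host genes, 11 matched a row and were tested; edgeR called 0, DESeq2 called 0, and 2 had an unadjusted p under 0.05. The 12 that were not matched were Zfas1 and genes named Snhg. The 11 tested were therefore mostly protein-coding genes such as Eef2, Rps3 and Rpl13a. Of the 11, 8 were negative (median -0.031), and their summed level was 13768 to 13934 CPM with the RBM25 plasmid and 14122 to 14370 CPM with the control plasmid, without overlap. No sums of other genes were set beside this one, so it does not speak for snoRNA hosts as a class. The smallest p was that of Eef2, a translation elongation factor, at a fold change of -0.076 ± 0.026 (log2, SE; edgeR adjusted p = 0.218). Eef2 alone stood at 3682 ± 104 and 3883 ± 44.6 CPM in the RBM25 and control groups (SD, n = 3 each). It thus made part of the gap between the sums. Eef2 was called lower without RBM25 replicate 3, a fit that called 2.69% of 13098 tested genes.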

How the data were processed

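Polyadenylated RNA of 6 libraries was sequenced from strand-marked libraries as read pairs, per the labels' protocols. The submitters' processing notes name HISAT2, DESeq2 and the build mRatBN7.2; no version, counter, annotation or strand setting is given in the sources used here. The deposited counts are whole reads per gene, not normalized. The deposited FPKM were rounded to 2 decimals by the authors.

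The counts were filtered with filterByExpr (minimum count 10), scaled by TMM and tested with edgeR 4.0.16 in R 4.3.3 (robust quasi-likelihood fit, group only, Benjamini-Hochberg over 12882 genes, called at an adjusted p under 0.05), after a test on simulated data. The SE is the fold change's size over the square root of F. Alternatives used DESeq2 1.42.0 and limma 3.58.1. Fold changes are RBM25 over control plasmid. The members, gene lists and tests were chosen with earlier results of these data known. Besides the 10 members, the text names Rbm25, for each list up to 3 called genes or else the smallest p, and the 5 nearest profiles; Snu13, Myc and Idh3b were added after their values were seen. Of the lists' symbols, 12 snoRNA host genes and 5 markers were not matched. No coordinates are given, since the gene table is of another assembly.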

Additional observations from a re-analysis of the deposited data

How the results depend on the processing

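The count of changed members was 1. It was 1 with DESeq2 size factors, upper quartile factors, no filter on low counts and DESeq2, 0 in each limma-trend fit on FPKM values (pseudocounts 1 and 0.1, and a filter at a mean of 1), and 0 to 2 when 1 library was left out. The count over all genes was 52 and became 205 with no filter (149 higher, 56 lower), 6, 6 and 0 in the limma-trend fits, and 5 to 352 when 1 library was left out (5 for control replicate 2, 21 for control replicate 3, 352 for RBM25 replicate 3). With the replicate number as a block (replicate block), 436 genes and 2 members, Nop58 and Npm1, were called. The numbers were not taken to pair the cultures, since deviations of same-numbered libraries correlated at 0.054, -0.067 and -0.0059, and not every library correlated best with its own number. The cause of these changes was not tested.

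Without 1 library the log2 fold change ranged from 0.17 to 0.22 for Nop58, 0.079 to 0.11 for Npm1, 0.043 to 0.10 for Ncl, 0.021 to 0.13 for Gar1 and -0.12 to -0.017 for Dkc1. The sign turned within the range for Nop56 (-0.052 to 0.030), Fbl (-0.022 to 0.033), Nhp2 (-0.051 to 0.0095), Nop10 (-0.049 to 0.022) and Nolc1 (-0.028 to 0.0094). No scaling, filter or tool in the table turned the sign of a member. Without RBM25 replicate 3, calls among the listed genes were Eef2 and Mxd4 (lower), Ccna2 and the epithelial marker Krt7 (higher), and the muscle markers Myog, Tnnt2 and Acta2 (1 higher, 2 lower). The replicate block called Eef2 and Mxd4 lower, and Myog and Casq2 (1 higher, 1 lower). Depth limits Gar1 most among the members.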

Other observations

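The RNAs that these proteins carry were also listed. The count table holds 259 rows of the snoRNA type, although the libraries were made from polyadenylated RNA. Their reads summed to 41.7, 42.9 and 44.1 CPM in RBM25 libraries 1, 2 and 3, against 37.1, 37.3 and 36.6 CPM in control libraries 1, 2 and 3, without overlap (log2 difference 0.21; exact permutation p = 0.1 on both sides, the smallest it allows). The sum of 106 rows named SNORD was 17.2 ± 0.473 CPM with the RBM25 plasmid and 14.7 ± 0.915 CPM with the control plasmid, and that of 126 rows named SNORA was 19.9 ± 0.314 CPM with the RBM25 plasmid and 17.5 ± 0.736 CPM with the control plasmid (SD, n = 3 each). Without the largest row, SNORD22, the log2 difference over all rows was 0.22. Only 33 of the 259 rows passed the filter on low counts. Of these 33, edgeR called 0, 2 had an unadjusted p under 0.05, 28 were positive and the median log2 fold change was 0.21. The filter asks for enough reads in as many libraries as 1 group holds, so a low row could pass through the RBM25 group alone. The share of positive rows among the 33 is therefore not free of the filter. With no filter on low counts, 158 of the 259 rows were positive (median log2 fold change 0.21), and with DESeq2 159 were. Among tested rows of other kinds, 62.5% of 797 lncRNA rows and 47.8% of 11986 protein-coding rows were positive. DESeq2 called 0 of the 259 rows, and limma-trend on all FPKM values called 2, both higher. Most snoRNAs lie in introns, and reads of a mature snoRNA, of its host's unspliced RNA and of overlapping features cannot be told apart in these counts.

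The rows closest to a call were described in the table as SNORA1 (0.521 ± 0.124 CPM in RBM25 libraries and 0.252 ± 0.0880 CPM in control libraries; edgeR adjusted p = 0.31) and SNORA25 (0.519 ± 0.0743 and 0.252 ± 0.0996 CPM in RBM25 and control libraries; edgeR adjusted p = 0.333; SD, n = 3 each). Both are on chromosome 8 and were picked out after their values were seen. Both had their lower mean in the control libraries, and the caveat given above on the filter on low counts applies to them too. Their differences are therefore not free of the filter. With no filter on low counts, edgeR called 0 of the 259 snoRNA rows.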
